A study of Mus musculus with 12 samples.

Results

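Genes whose products move nucleosomes, add or remove methyl groups on histones, read acetylated histones or methylate DNA were compared in hypothalamus between mice with and without a tamoxifen-activated Cre for the cohesin gene Smc3. The genes were taken by symbol: Kmt, Kdm, Chd, Smarc, Arid1 to Arid5, Setd, Brd, Ezh and Dnmt symbols, leaving out the sex-linked Kdm5 genes. This gave 83 of the 32494 listed genes. Of the 83, 77 reached a mean of 1 CPM (counts per megaread of the library) over the 12 libraries and were tested. The other 6 were not. Dnmt3b, at a mean of 0.968 CPM and 11 to 63 reads per library, lay just outside the minimum, and Brd8dc at 1.17 CPM and Kdm4d at 1.92 CPM lay just inside it. Dnmt3aos, Dnmt3l, Ezhip, Arid3c and Smarca5-ps were at means of 0.131, 0.118, 0.1004, 0.0726 and 0.0499 CPM.

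All 12 animals were male mice with floxed Smc3 that had received tamoxifen, and whole hypothalamus RNA was sequenced 5 weeks after the tamoxifen. The labels also give 8 weeks as the age, without a stage. The titles of all 12 samples, those named cKO included, also carry the word control. By their labels, the 7 WT animals lacked the Camk2a-cre/ERT2 transgene (Cre-) and the 5 cKO animals carried it (Cre+), so the groups would differ in the transgene and share the floxed alleles and the drug. Camk2a-cre/ERT2 drives the drug-dependent recombinase in excitatory neurons of the forebrain, while the RNA came from all cells of the tissue. Mice are named by the group and number in their titles, and values of the libraries labelled cKO are given in the order cKO 8, 9, 12, 13 and 14.

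Chromatin remodellers use ATP to slide, evict or exchange nucleosomes. SET-domain enzymes write methyl marks on histone lysines that are removed by the LSD1 and JmjC demethylases. Methylation of lysine 4 of histone H3 (H3K4) marks active promoters and enhancers, that of lysine 27 (H3K27) marks genes held silent by Polycomb, and that of lysine 20 of histone H4 (H4K20) marks compact chromatin. Many of these enzymes are dosage-sensitive, and loss of a single copy of genes such as KMT2D, SETD1A or CHD8 causes disorders of brain development.

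WT 1 held 68.7 M reads, and the other 11 libraries 17.1 M to 24.0 M. Smc3, the floxed gene, went against its label. Its mean was 81.6 ± 3.14 CPM (SD, n = 7; 76.8 to 85.7) under the label WT but 131 ± 10.3 CPM (SD, n = 5; 116 to 144) under the label cKO (limma, log2 fold change 0.67, SE 0.05, adjusted p = 3.06e-05). Directions below are therefore those of the libraries labelled cKO against those labelled WT, whatever the state of Smc3 in them. Were the labels exchanged, every direction would turn, and this was not tested. The labels give no batch, and each numbered sample was taken as 1 mouse. One library stood apart for these genes: cKO 13 was the lowest of the 12 in 37 of the 77 tested chromatin genes (48.1%), against 14.8% of all tested genes. In bulk tissue, fewer cells of a type and less RNA per cell cannot be told apart. Of the 12 tested markers of hypothalamic neurons, 10 had at least 3 reads in every library. Nr5a1 had fewer in 4 libraries, with 0 in 1 labelled WT, and Hmx2 had 1 read in 1 library. Of the 12, 1 was higher in the libraries labelled cKO, Sim1 (log2 fold change 0.56; limma, adjusted p = 0.0206), and 0 were lower, with a median log2 fold change of 0.37. The sum over all 14 listed, the 2 untested ones included, ran from 73.3 to 698 CPM in the libraries labelled WT and from 153 to 758 CPM in those labelled cKO. Markers of the adjoining thalamus, none of them at 0 in any library, summed to 1065 to 1758 CPM and 801 to 1145 CPM, and 4 of the 12 were lower in the libraries labelled cKO. Of the markers of other cells, 3 of 8 for neurons and 3 of 4 for oligodendrocyte precursors were higher, with sums of 4884 to 5555 against 5607 to 6101 CPM and of 185 to 212 against 217 to 247 CPM. None of the tested markers of astrocytes, oligodendrocytes, microglia, vessels, ependyma, choroid plexus or dividing cells passed the test. Nor did any of the 5 markers of excitatory and inhibitory neurons or of the 10 tested for cortex and striatum. Slc17a6 and Slc17a7, of excitatory neurons, had log2 fold changes of -0.06 and -0.37. Those of Gad1, Gad2 and Slc32a1, of inhibitory neurons, were 0.47, 0.19 and 0.43. The part of these markers in the results for the chromatin genes was not tested beyond the fits with marker scores given near the end.

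Of the 77 tested chromatin genes, 11 were lower and 3 were higher in the libraries labelled cKO by limma at an adjusted p under 0.05. The 14 make up 18.2% of the genes tested, beside a background of 14.1% over all 15359 genes. By direction the shares were 14.3% lower against a background of 7.6%, and 3.90% higher against 6.54%. The genes that fell were Kmt2d, Kmt5c, Kmt2b, Setd1a, Kdm8, Dnmt3a, Kdm7a, Kdm3b, Kdm6a, Chd4 and Kmt5b, and those that rose were Smarce1, Smarcal1 and Smarca5. Their changes were small, from 0.12 to 0.42 on the log2 scale with a median of 0.19, against a median of 0.25 over all genes past the threshold. The median log2 fold change of the 77 was -0.04 and that of all tested genes 0.01, and 66.2% of the 77 had a log2 fold change below 0 against 47.5% of all genes. Both groups' ranges lay apart for 6 of the 77 genes (7.79%, background 6.73%): Smarce1 and Smarcal1 were higher in every library labelled cKO, and Kdm3b, Kmt2b, Kdm8 and Kdm7a lower. Without cKO 13, 8 of the 77 genes passed (10.4%; 2 higher, 6 lower), where 10% of all genes did. Without WT 1, or without cKO 14, 6 passed (7.79%; 2 higher, 4 lower in either case), where 7.56% and 9.44% of all genes did. The ranges of 14 genes lay apart without WT 5 (9.69% of all genes) and of 10 without cKO 12 (9.82% of all genes). Median centring turned the split over all genes, to 8.97% higher and 6.86% lower, while 3 of the 77 were higher and 9 lower.

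The chromatin genes were on the whole abundant and long. Their median level was 69.8 CPM against 25.0 CPM for all tested genes, and their median exon length 8.12 kb against 4.46 kb. The median SE of their log2 fold changes was 0.05, beside 0.07 for all genes. Within the libraries labelled WT their coefficient of variation had a median of 5.64%, where counting error alone gives a median of 2.39%. In 9 of the 77 it was no larger than counting error. Arid5b, an ARID-domain cofactor, had the highest, 17.9% against 2.74% from counting.

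**Figure D1:**
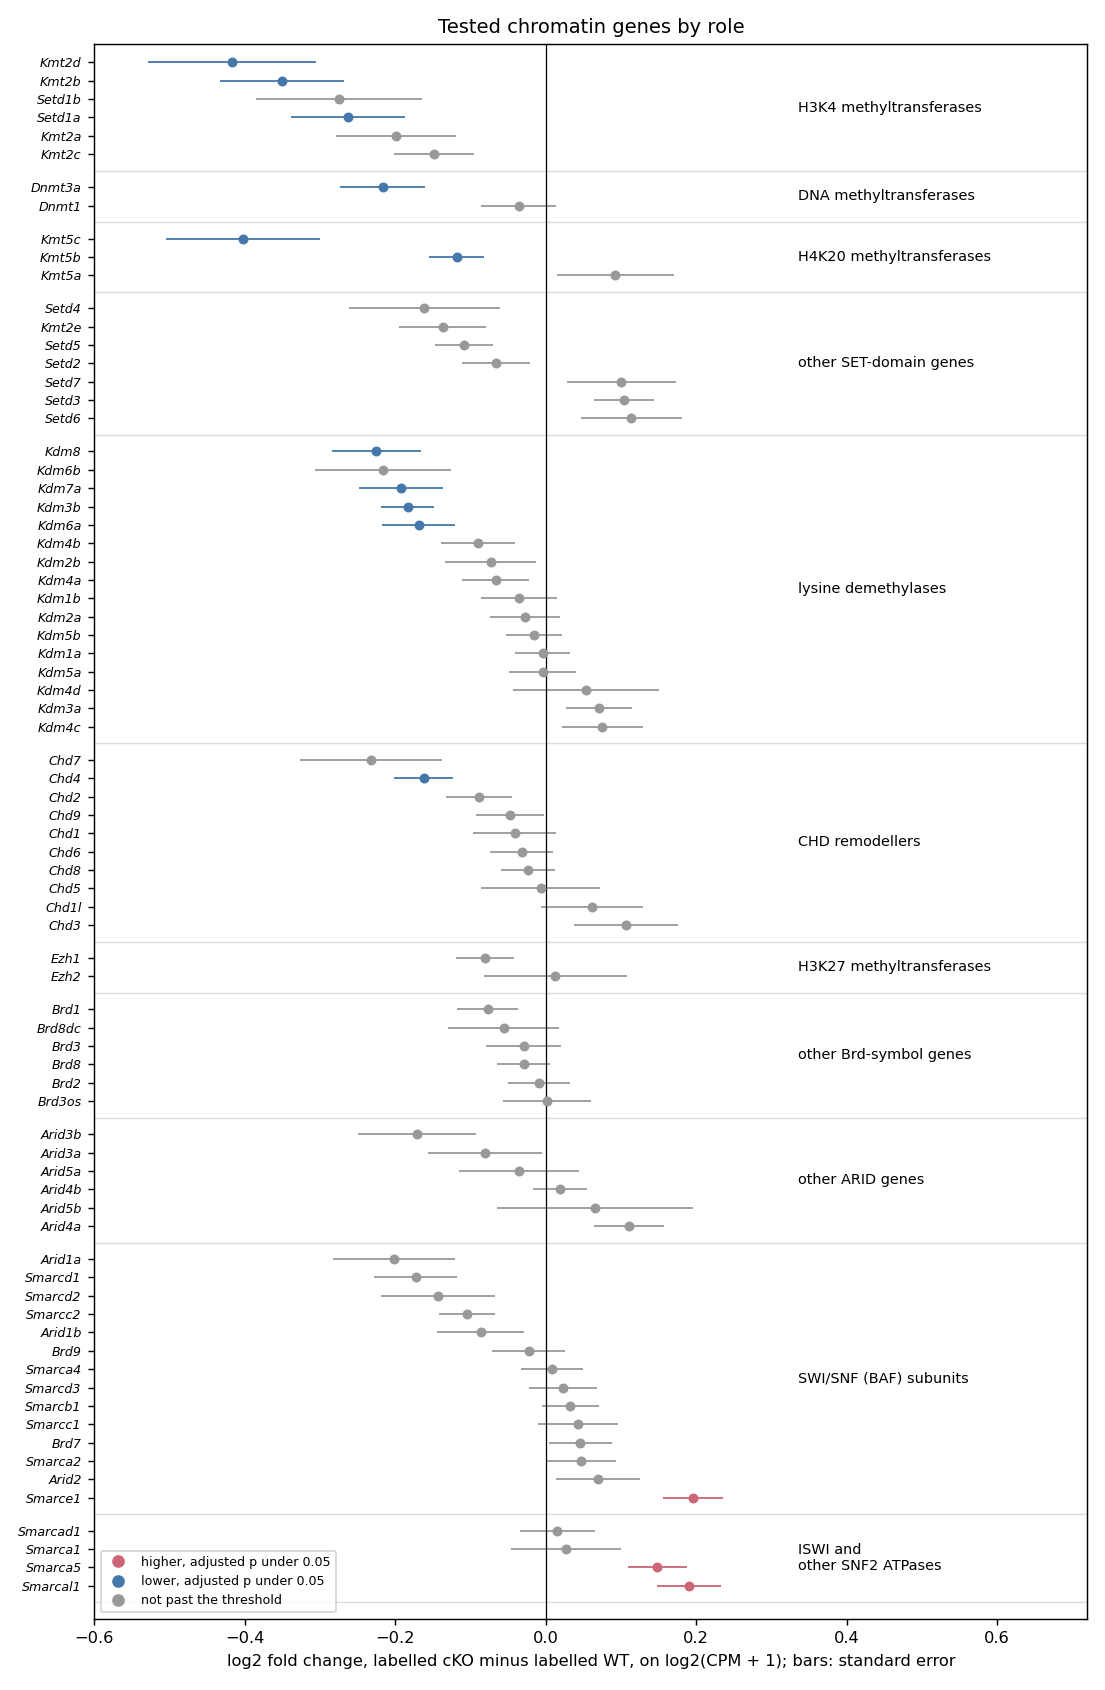
Log2 fold change of 76 of the 77 tested genes (x axis, libraries labelled cKO minus WT on the log2(CPM + 1) scale) with its standard error as a bar, grouped by role and coloured by whether the gene passed an adjusted p of 0.05. All 6 H3K4 methyltransferases lie left of 0. The 4 Smarc-symbol genes grouped as ISWI and other SNF2 ATPases lie right of it. SNF2 ATPases without a member symbol are not shown.

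Promoters of 5 of the genes that changed are shown, picked with their values known, so that the letters at genes that fell and at genes that rose can be read side by side. They run from 250 bases before to 50 bases after the RefSeq start in build GRCm38.p6, written 5′ to 3′ on the gene's strand. In Kmt2d, Smarca5 and Smarcal1 capitals mark GC boxes (GGGCGG on either strand), and in Kmt5c and Smarcal1 they also mark CCAAT boxes on either strand. Setd1a had neither. Kmt2d, Setd1a and Kmt5c fell; Smarca5 and Smarcal1 rose.
Kmt2d, chr15:98871156-98871455, minus strand: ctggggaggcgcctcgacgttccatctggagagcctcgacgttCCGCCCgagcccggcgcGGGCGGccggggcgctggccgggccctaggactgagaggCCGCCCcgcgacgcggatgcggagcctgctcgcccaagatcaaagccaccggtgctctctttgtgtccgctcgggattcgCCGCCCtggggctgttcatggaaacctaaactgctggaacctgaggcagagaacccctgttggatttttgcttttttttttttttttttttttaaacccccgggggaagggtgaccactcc
Setd1a, chr7:127777139-127777438, plus strand: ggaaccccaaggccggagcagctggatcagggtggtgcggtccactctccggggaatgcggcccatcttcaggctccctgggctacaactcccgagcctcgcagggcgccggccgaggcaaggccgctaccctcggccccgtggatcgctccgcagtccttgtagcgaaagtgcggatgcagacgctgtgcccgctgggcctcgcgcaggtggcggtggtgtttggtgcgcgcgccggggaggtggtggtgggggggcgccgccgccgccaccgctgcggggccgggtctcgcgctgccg
Kmt5c, chr7:4739877-4740176, plus strand: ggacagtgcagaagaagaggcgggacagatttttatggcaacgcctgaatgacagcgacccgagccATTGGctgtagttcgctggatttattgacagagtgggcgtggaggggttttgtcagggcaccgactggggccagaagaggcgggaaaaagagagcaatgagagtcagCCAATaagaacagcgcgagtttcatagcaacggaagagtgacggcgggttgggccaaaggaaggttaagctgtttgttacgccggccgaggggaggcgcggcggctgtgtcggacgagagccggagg
Smarca5, chr8:80739410-80739709, minus strand: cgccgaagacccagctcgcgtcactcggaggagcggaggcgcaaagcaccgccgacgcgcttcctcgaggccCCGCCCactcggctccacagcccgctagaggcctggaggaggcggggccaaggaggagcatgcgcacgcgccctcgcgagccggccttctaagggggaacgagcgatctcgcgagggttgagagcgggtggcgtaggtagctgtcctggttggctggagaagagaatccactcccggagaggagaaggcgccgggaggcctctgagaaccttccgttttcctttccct
Smarcal1, chr1:72583001-72583300, plus strand: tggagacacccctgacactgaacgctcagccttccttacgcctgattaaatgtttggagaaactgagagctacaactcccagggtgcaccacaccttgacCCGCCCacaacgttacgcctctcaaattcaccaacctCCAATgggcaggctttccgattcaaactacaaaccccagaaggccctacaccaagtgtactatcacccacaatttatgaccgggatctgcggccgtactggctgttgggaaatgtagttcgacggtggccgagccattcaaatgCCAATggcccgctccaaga
The Kmt2d promoter held 4 GC boxes and 27 CpG dinucleotides, that of Setd1a 35 CpG, that of Kmt5c 2 CCAAT boxes and 22 CpG. The Smarca5 promoter held 1 GC box and 32 CpG, and that of Smarcal1 1 GC box, 2 CCAAT boxes and 13 CpG. A single RefSeq promoter was listed for 42 of the 77 tested genes, among them 8 of the 14 that passed the test. In the 6 of these 8 that fell, the promoters held 13 (Kdm8) to 65 (Kdm7a) CpG at 50% to 82.7% GC, and the 2 that rose lay within both ranges. GGGCGG was found in 30 of the 42 (71.4%) and in 63.8% of the 9513 promoters of all tested genes with 1 listed promoter. The shares for CCAAT were 31.0% and 38.7%, for the ETS motif CCGGAAG 16.7% and 17.0%, and for TATAAA 4.76% and 6.99%. The cAMP response element TGACGTCA was found in 0 of the 42 and in 3.22% of all promoters, the NRF1 motif in 0 and 1.98%, and the CTCF core in 0 and 2.92%. The median CpG count of the 42 was 27 against 20 over all promoters. A match is a description of letters, not evidence of a bound factor.

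Among the H3K4 methyltransferases, all 6 had log2 fold changes below 0, with a median of -0.27 that was -0.16 without cKO 13, and 3 of the 6 passed the test. These enzymes pair off by complex: Kmt2a and Kmt2b work at promoters of developmental genes, Kmt2c and Kmt2d place monomethylation at enhancers, and Setd1a and Setd1b lay down most trimethylation at active promoters.

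Kmt2b ranged from 82.9 to 106 CPM in the libraries labelled WT, with a median of 98.5, and was at 80.8, 80.3, 81.4, 59.8 and 74.3 CPM in those labelled cKO. Every library labelled cKO was below every library labelled WT, with cKO 13 lowest and WT 5 the lowest of its group. The mean was 96.1 ± 8.92 CPM (SD, n = 7) against 75.3 ± 9.12 CPM (SD, n = 5). On the log2 scale the change was -0.35 (SE 0.08; limma, adjusted p = 0.0161).

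Kmt2d, the enhancer methyltransferase mutated in Kabuki syndrome, ranged from 159 to 229 CPM in the libraries labelled WT, with a median of 205. It was at 171, 166, 154, 106 and 150 CPM in those labelled cKO, where cKO 13 was lowest and cKO 8 and cKO 9 lay above WT 5. Its log2 fold change was -0.42 (SE 0.11; limma, adjusted p = 0.0266), the largest in size of the 77 genes. Without cKO 13 it was -0.30 and that of Kmt5c, at -0.38, was larger in size, as it was with a thalamus marker score as covariate (-0.41 against -0.40).

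Setd1a ranged from 83.3 to 102 CPM with a median of 91.9 in the libraries labelled WT, and was at 83.2, 83.8, 83.0, 62.6 and 80.4 CPM in those labelled cKO. The groups overlapped only through cKO 9 and WT 5, and cKO 13 stood far below its group. The log2 fold change was -0.26 (SE 0.08; limma, adjusted p = 0.0349).

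The 3 partners did not pass. Kmt2a ranged from 248 to 301 CPM with a median of 294 in the libraries labelled WT, and was at 281, 261, 273, 195 and 248 CPM in those labelled cKO (log2 fold change -0.20, SE 0.08; limma, adjusted p = 0.109). Kmt2c ranged from 149 to 175 CPM with a median of 160, against 147, 147, 154, 129 and 148 CPM (log2 fold change -0.15, SE 0.05; limma, adjusted p = 0.0778). Setd1b ranged from 44.3 to 53.0 CPM with a median of 51.7, against 45.6, 46.8, 47.9, 28.0 and 45.5 CPM (log2 fold change -0.27, SE 0.11; limma, adjusted p = 0.109). In each of the 3 the groups overlapped and cKO 13 was the lowest of the 12 libraries.

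Across the 6 genes, cKO 13 was the lowest of all 12 libraries each time. In this library genes with at least 8 kb of exon stood lower relative to genes under 3 kb by 0.15 on the log2 scale (-0.15), where the other 11 lay between -0.05 and 0.07. Genes of at least 55% GC stood at -0.13 relative to those under 45% in both cKO 13 and cKO 14, where the other 10 lay between -0.04 and 0.11. Without cKO 13, the 6 log2 fold changes ran from -0.30 to -0.11 and Kmt2d and Kmt2b still passed. After correction of each library for GC content and length they ran from -0.38 to -0.11, and Kmt2d and Kmt2b passed. Without WT 1, or without cKO 14, Kmt2b alone passed.

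**Figure D2:**
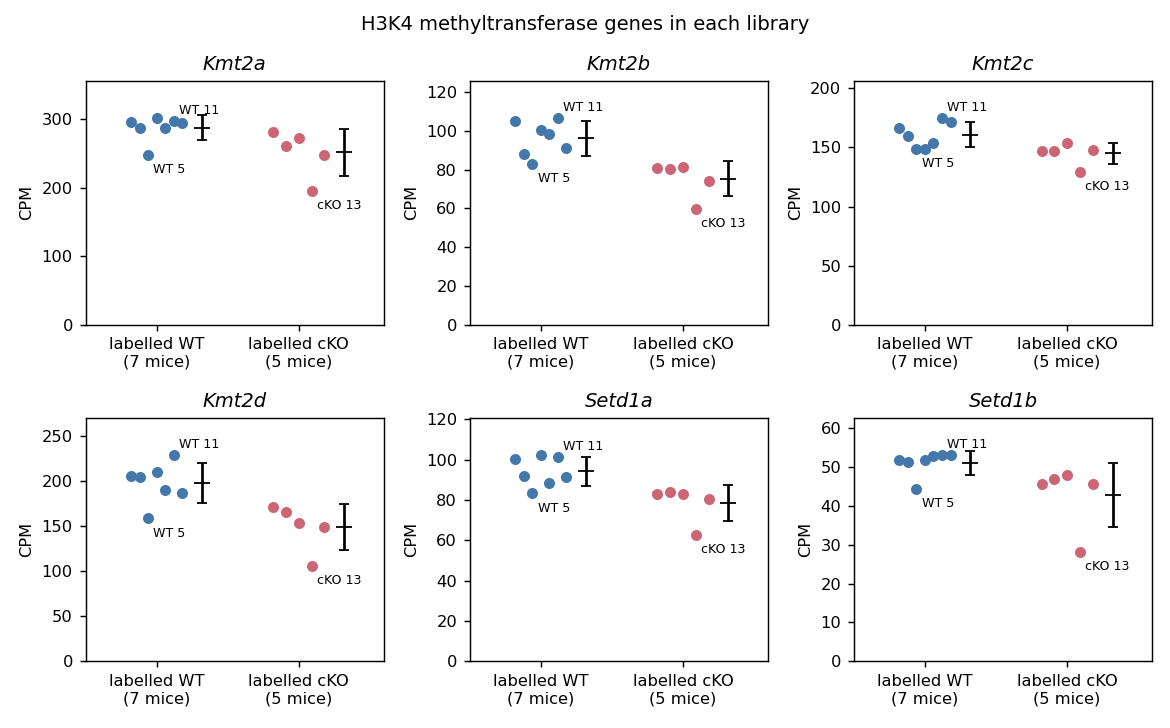
CPM of the 6 H3K4 methyltransferase genes in each library (y axis from 0, points; 7 mice labelled WT and 5 labelled cKO), with the group mean and SD as a bar beside the points. Kmt2b shows no overlap between groups, and cKO 13 is the lowest point in every panel.

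Among the other methyltransferases, 2 of the 3 H4K20 enzymes fell. Kmt5c, which trimethylates H4K20 in heterochromatin, ranged from 16.8 to 23.9 CPM with a median of 23.0 in the libraries labelled WT, and was at 18.3, 16.1, 18.01, 15.2 and 13.02 CPM in those labelled cKO. WT 5 lay among the libraries labelled cKO and WT 15 level with cKO 8, while the other 5 labelled WT lay above. The log2 fold change was -0.40 (SE 0.10; limma, adjusted p = 0.0225). Kmt5b, its close relative, ranged from 62.6 to 69.6 CPM with a median of 65.9, against 61.1, 59.6, 57.8, 60.4 and 62.7 CPM. That fall of 0.12 on the log2 scale (-0.12, SE 0.04; limma, adjusted p = 0.0453) was the smallest of the 14. It was lost in 10 of the 12 fits that left out 1 library and in 7 of the 15 other settings. Kmt5a, which adds the first methyl group, was at 29.4 to 39.8 CPM and 31.3 to 40.5 CPM (limma, adjusted p = 0.444).

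Neither of the 2 tested H3K27 methyltransferases passed. Ezh1, the Polycomb catalytic subunit of resting cells, was expressed at 13.4 times the level of Ezh2 per kb of exon, and had a log2 fold change of -0.08 (limma, adjusted p = 0.175). Ezh2, the subunit of dividing cells, was at 3.76 to 5.67 CPM in the libraries labelled WT and 3.91 to 5.46 CPM in those labelled cKO, with a log2 fold change of 0.01. None of the 7 other SET-domain genes passed, and their log2 fold changes ran from -0.16 for Setd4 to 0.11 for Setd6. Of the 2 tested DNA methyltransferases, Dnmt3a, which sets new methylation and the non-CG methylation of neurons, fell. Dnmt3a ranged from 129 to 157 CPM with a median of 144 in the libraries labelled WT and was at 131, 127, 132, 110 and 123 CPM in those labelled cKO, so that the groups overlapped (log2 fold change -0.22, SE 0.06; limma, adjusted p = 0.0245). Dnmt1, the maintenance enzyme, was at 81.8 to 94.4 CPM against 88.2, 89.0, 91.2, 76.3 and 90.3 CPM (log2 fold change -0.04; limma, adjusted p = 0.670).

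Of the 16 lysine demethylases tested, 4 fell, 0 rose, and 13 had a log2 fold change below 0. Kdm3b, which removes methyl groups from lysine 9 of histone H3 (H3K9), gave the smallest adjusted p of the 77 genes. It ranged from 71.5 to 75.7 CPM with a median of 72.2 in the libraries labelled WT and was at 68.2, 64.0, 63.1, 60.1 and 65.2 CPM in those labelled cKO. The groups lay apart, with a narrow band in the libraries labelled WT, and the log2 fold change was -0.18 (SE 0.04; limma, adjusted p = 0.00742). The two-sided exact permutation test gave p = 0.00126, the smallest that groups of 7 and 5 allow.

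Kdm8, a JmjC-domain hydroxylase, was the least abundant gene of the 14. It ranged from 6.58 to 7.69 CPM with a median of 7.05, against 5.83, 5.83, 6.20, 6.12 and 5.21 CPM. Every library labelled cKO was below every one labelled WT, on 88 to 529 reads per library, and the log2 fold change was -0.22 (SE 0.06; limma, adjusted p = 0.0259). Kdm7a, which acts on H3K9 and H3K27, ranged from 37.0 to 46.1 CPM with a median of 39.1, against 36.5, 34.8, 35.0, 32.9 and 36.9 CPM. The ranges lay apart narrowly, with cKO 14 just under WT 6, and the change of -0.19 on the log2 scale (SE 0.06; limma, adjusted p = 0.0366) was lost in 6 of the 15 other settings. Among these was the GC and length correction, where the change was -0.17 (limma, adjusted p = 0.0570).

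Kdm6a, the X-linked H3K27 demethylase that sits in the Kmt2c and Kmt2d complexes, ranged from 28.3 to 33.997 CPM with a median of 31.3, against 26.3, 28.9, 28.6, 27.7 and 27.4 CPM. The groups overlapped and the log2 fold change was -0.17 (SE 0.05; limma, adjusted p = 0.0353). Its relative Kdm6b ranged from 48.1 to 57.8 CPM with a median of 56.5, against 55.1, 49.4, 53.2, 35.5 and 45.2 CPM, again with cKO 13 lowest (log2 fold change -0.22, SE 0.09; limma, adjusted p = 0.121). Kdm1a and Kdm5a had log2 fold changes of -0.00, and the highest of the group were Kdm4c at 0.08 and Kdm3a at 0.07.

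The ATP-dependent remodellers moved both ways. The 4 tested genes grouped here as ISWI and other SNF2 ATPases had log2 fold changes above 0, with a median of 0.09. Of these, 2 rose, and Smarcad1 was near 0 at 0.02. This group holds only genes with a Smarc symbol. The partner list of INO80, SWR1 and other remodellers, which holds further SNF2 ATPases, went the other way. Of its 10 tested genes 0 rose and 2 fell, with a median log2 fold change of -0.14. Smarcal1, an annealing helicase that rewinds DNA at stalled replication forks, ranged from 108 to 130 CPM with a median of 119 in the libraries labelled WT and was at 135, 132, 140, 138 and 137 CPM in those labelled cKO. All 5 lay above all 7, and the log2 fold change was 0.19 (SE 0.04; limma, adjusted p = 0.0133). Smarca5, the ISWI motor, ranged from 74.2 to 80.9 CPM with a median of 75.8, against 82.1, 86.3, 79.8, 89.5 and 89.4 CPM. It overlapped only through cKO 12, and its change of 0.15 on the log2 scale (SE 0.04; limma, adjusted p = 0.0265) was not kept under the GC and length correction, where it was 0.07 (limma, adjusted p = 0.176). Its counts are uncertain as far as the pseudogene Smarca5-ps shares its reads. Smarca1, the other ISWI motor, was at 45.4 to 59.1 CPM with a median of 54.4, against 53.7, 53.5, 49.4, 51.2 and 61.3 CPM (log2 fold change 0.03; limma, adjusted p = 0.839).

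Of the 14 SWI/SNF (BAF) subunits, 1 rose, 0 fell, and the median log2 fold change was 0.02. Smarce1, the HMG-box subunit that touches DNA, ranged from 31.0 to 34.4 CPM with a median of 32.3 in the libraries labelled WT and was at 39.5, 37.2, 36.1, 35.9 and 37.6 CPM in those labelled cKO. The groups lay apart, and the log2 fold change was 0.20 (SE 0.04; limma, adjusted p = 0.00962; exact two-sided permutation p = 0.00126). Smarcd1, a subunit that bridges BAF to transcription factors, was just outside the threshold at 73.3 to 90.3 CPM against 73.3, 75.9, 72.5, 65.8 and 65.9 CPM (log2 fold change -0.17, SE 0.05; limma, adjusted p = 0.05001). The ATPases Smarca4 and Smarca2 had log2 fold changes of 0.01 and 0.05, and the large subunit Arid1a one of -0.20 (SE 0.08; limma, adjusted p = 0.110). Arid1a ranged from 151 to 187 CPM, against 154, 155, 164, 113 and 158 CPM, with cKO 13 far below its group.

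Of the 10 CHD remodellers, 8 had log2 fold changes below 0 and 1 passed. Chd4, the motor of the NuRD deacetylase complex, ranged from 267 to 295 CPM with a median of 280 in the libraries labelled WT and was at 258, 241, 268, 235 and 250 CPM in those labelled cKO. It overlapped only through cKO 12, and its log2 fold change was -0.16 (SE 0.04; limma, adjusted p = 0.0186). Chd4 was the only one of the 14 to pass in each of the 15 other settings and each of the 12 fits without 1 library. Chd3, the alternative NuRD motor, was at 827 to 968 CPM with a median of 888, against 1009, 1037, 921, 805 and 1054 CPM (log2 fold change 0.11, SE 0.07; limma, adjusted p = 0.319). Chd5, the neuronal one, was at 377 to 473 CPM against 436, 454, 447, 332 and 451 CPM (log2 fold change -0.01; limma, adjusted p = 0.967). Chd7 was at a log2 fold change of -0.23 (SE 0.09) that did not pass (limma, adjusted p = 0.115), while Chd8 was at -0.02. None of the 7 other genes with a Brd symbol and none of the 6 other ARID genes tested passed. The 7 include Brd3os, an opposite-strand gene of Brd3 that came in by its symbol and is no bromodomain gene. Brd2 and Brd3, of the BET family, had log2 fold changes of -0.01 and -0.03.

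**Figure D3:**
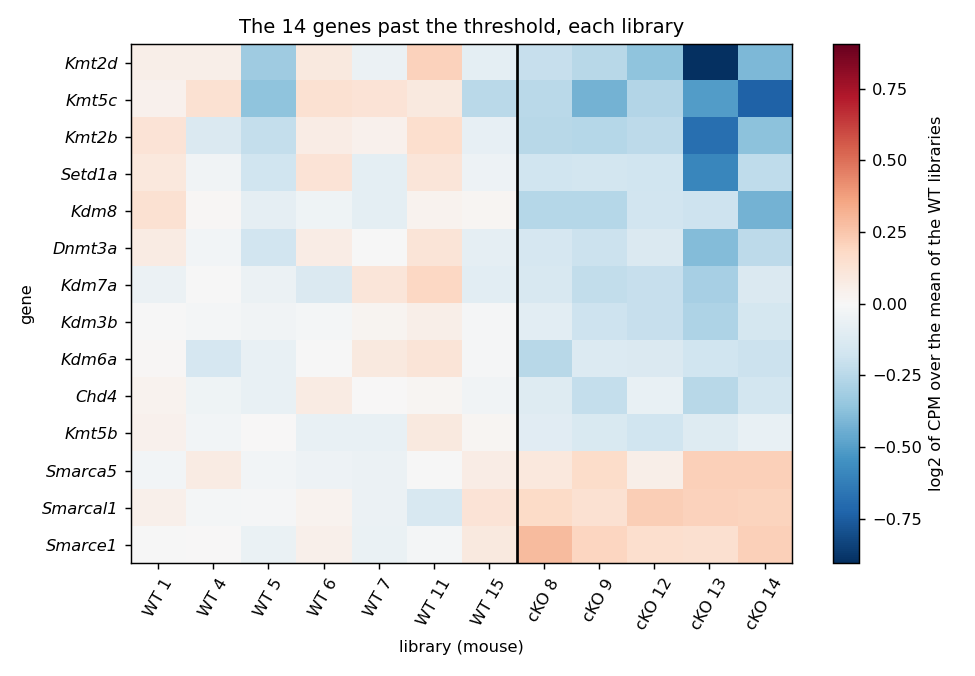
The 14 genes that passed an adjusted p of 0.05 (rows, ordered by fold change) in each of the 12 libraries (columns, a line divides the groups), coloured by the log2 of CPM over the mean of the libraries labelled WT, blue below and red above. The darkest cell is Kmt2d in cKO 13, and the row of Kdm3b is nearly white across the 7 libraries labelled WT.

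Per kb of exon, Chd3 was the most abundant of the genes with a length, at 109 CPM per kb, followed by Smarcc2 at 72.3, Chd5 at 44.2, Chd4 at 33.4 and Smarca4 at 27.9 CPM per kb. At the other end stood Ezh2 at 0.707, Kdm4d at 0.672 and Arid3b at 0.546 CPM per kb. Of the 75 pairs of neighbours in this order, 4 had ranges over the 12 libraries that lay apart: Chd3 over Smarcc2, Smarcc2 over Chd5, Chd1l over Kdm2b, and Setd4 over Arid5a. In 6 further pairs the ranges overlapped, but the order was the same within every library: Chd5 over Chd4, Chd4 over Smarca4, Smarcd1 over Kmt2a, Kdm6a over Kdm8, Kdm2b over Arid3a, and Arid5a over Ezh2. The neighbours of the other 65 pairs changed places in at least 1 library.

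**Figure D4:**
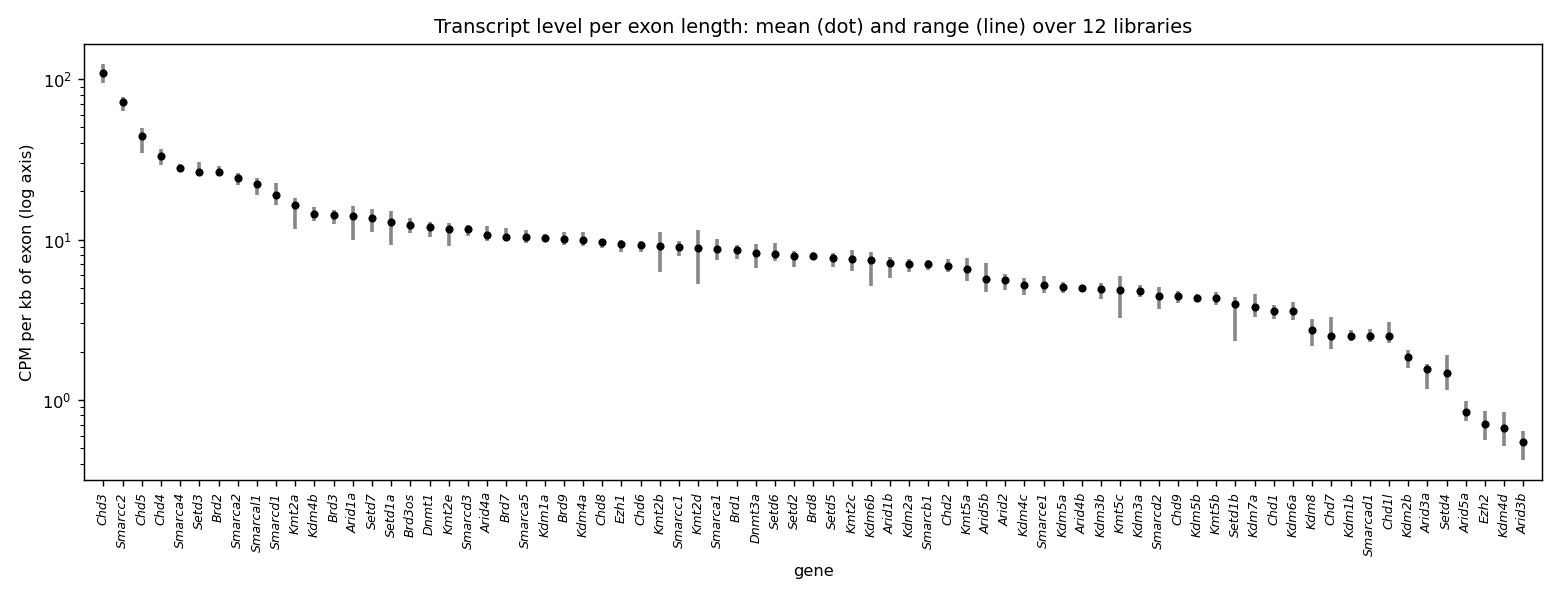
CPM per kb of exon (log axis) of the tested genes with an exon length, 1 left out, in falling order, as the mean (dot) and range (line) over 12 libraries. Chd3 leads at 109 CPM per kb and Arid3b is last at 0.546.

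Within a library, the ratio of 2 related genes does not depend on depth. It was examined per kb of exon for 20 pairs, and in 3 the groups did not overlap. No background was computed for such ratios. A gene that passed the test is part of 10 of the 20 pairs and of 2 of these 3, whose ratios therefore restate its fall in part. Kdm3a to Kdm3b went from a log2 ratio of -0.15 to 0.10, with ranges of -0.22 to -0.11 and 0.01 to 0.23. Where this ratio crosses 0 depends on the annotated exon lengths used, 8.225 kb for Kdm3a and 14.095 kb for Kdm3b. In CPM, Kdm3b (60.1 to 75.7) was above Kdm3a (36.0 to 42.8) in every library, so no switch between these H3K9 demethylases is read from it. Kdm3a itself was at 36.0 to 39.4 CPM in the libraries labelled WT and 42.2, 38.0, 37.1, 41.2 and 42.8 CPM in those labelled cKO (limma, adjusted p = 0.298). Chd3 to Chd4 went from 1.599 to 1.868, with ranges of 1.45 to 1.698 and 1.704 to 2.03 that barely missed each other. Smarcd1 to Smarcd3 went from 0.79 to 0.59, with ranges of 0.70 to 0.87 and 0.50 to 0.69. Kmt2a to Kmt2b, Kmt2c to Kmt2d and Kmt5b to Kmt5c overlapped, with mean log2 ratios of 0.79 and 0.94, -0.32 and -0.05, and -0.27 and 0.03. These ratios are descriptions and were not tested.

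The median GC content of the transcripts was 55.04% in the 11 genes that fell, 47.6% in the 3 that rose and 50.3% in the 62 others with a value, beside 50.8% over all tested genes. The genes that fell ran from 40.9% to 59.3% and those that rose from 39.0% to 52.5%, so the values overlapped, and the difference was not tested. Of the 18 tested chromatin genes of at least 55% GC, 6 fell and 0 rose, where 10.2% of all genes in that class fell and 3.48% rose. Of the 13 under 45% GC, 2 fell and 1 rose, where 4.08% of all such genes fell and 11.04% rose. With the GC and length correction, 12 of the 76 genes with a GC content passed, 9 lower and 3 higher, where 15.3% of all genes passed. Of these, 11 were among the 14 genes above, and the other was the BAF motor Smarca4, higher (log2 fold change 0.12; limma, adjusted p = 0.0375). Setd1a, Smarca5 and Kdm7a did not pass, at log2 fold changes of -0.23, 0.07 and -0.17 (limma, adjusted p = 0.0533, 0.176 and 0.0570).

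Partner genes of the same complexes and other enzymes of the same marks were examined as 98 listed genes, of which 96 were tested. Of these, 6 fell and 2 rose (8.33% in all, beside the same background of 14.1%), with a median log2 fold change of -0.01. The listed partners of the H3K4 methyltransferases in their complexes gave 0 of 13, and the further BAF subunits 0 of 16. Dot1l, which methylates lysine 79 of histone H3, went from 82.5 to 61.5 CPM (log2 fold change -0.41, SE 0.07; limma, adjusted p = 0.00526), and Hr, a JmjC corepressor, from 54.4 to 39.0 CPM (log2 fold change -0.50, SE 0.13; limma, adjusted p = 0.0240). Tet2, which oxidises methylcytosine, went from 48.5 to 39.0 CPM (log2 fold change -0.31, SE 0.06; limma, adjusted p = 0.00601). Among the remodellers, Baz2a, a noncoding-RNA-binding partner of Smarca5, fell by 0.26 on the log2 scale, the SNF2 ATPase Rad54l2 by 0.22 and Ino80 by 0.14 (limma, adjusted p = 0.00815, 0.00956 and 0.0464). Rad54l2 passed in all 15 other settings and all 12 fits without 1 library, whereas Ino80 was lost in 9 of the 15 and 9 of the 12. The histone chaperone Rbbp4, part of both PRC2 and NuRD, and the NuRD subunit Mta3 rose, from 131 to 145 CPM and from 197 to 222 CPM (log2 fold change 0.15 and 0.18; limma, adjusted p = 0.0113 and 0.0369). Mta3 was lost in 6 of the 15 settings and 8 of the 12 fits, and its log2 fold change was 0.05 with both marker scores as covariates.

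In the authors' deposited table, 8 of the 83 chromatin genes had a false discovery rate under 0.05, 6 lower and 2 higher. The background was 4.94% of the 32494 genes that table lists. Only 15359 of those reached a mean of 1 CPM, against 77 of the 83 chromatin genes, so the 2 sets differ in level. All 8 were among the 14 above: Kmt2b, Kmt5c, Kmt2d, Kdm3b, Dnmt3a, Setd1a, Smarcal1 and Smarce1. The authors' deposited table gave Kmt2b a log2 fold change of -0.35 at a false discovery rate of 0.00467, and Chd4 a rate of 0.0506. All 14 had the same sign in both.

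The comparison was also fitted with marker levels as covariates. With the mean log2 level of these markers (thalamus score, 5.79 to 6.73 in the libraries labelled WT and 5.14 to 5.97 in those labelled cKO) as a covariate, 1 of the 77 genes passed, Chd4 (log2 fold change -0.20; limma, adjusted p = 0.0446), where the background was 5.03%. The log2 fold changes of Kmt2d, Kmt2b, Setd1a and Kdm3b in that fit were -0.40, -0.35, -0.29 and -0.16 (limma, adjusted p = 0.131, 0.0801, 0.104 and 0.0603). That of Smarcal1 was 0.11 and that of Kdm7a -0.09 (limma, adjusted p = 0.156 and 0.392). With the hypothalamus score added, 6 passed, beside a background of 9.21%: Chd4, Setd1a, Kmt2b, Kdm3b and Chd7 lower, and Setd7 higher. Without the 4 libraries lowest in the hypothalamus score (WT 4, WT 5, cKO 12 and cKO 13), 16 passed (20.8%), 14 lower and 2 higher, where 10.3% of all genes passed, 6.16% lower and 4.10% higher.

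**Figure D5:**
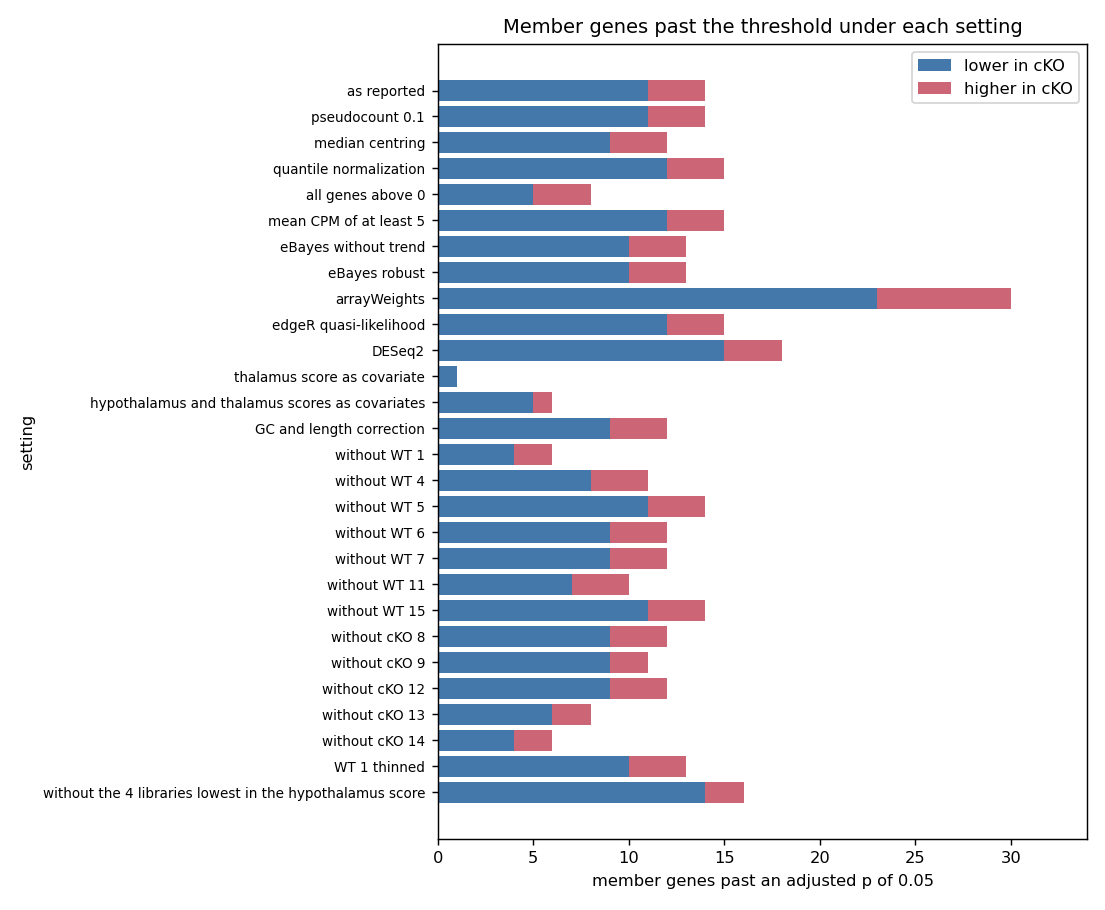
Number of the 77 chromatin genes past an adjusted p of 0.05 (x axis, blue lower and red higher in the libraries labelled cKO) under each setting (y axis). The count is 14 as reported, lies between 6 and 14 when 1 library is left out, and is 1 with the thalamus score as a covariate.

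The library kit named in the labels does not mark strand, so reads from an antisense gene cannot be told from those of its partner. Of the 14 genes, 5 share exon bases with a gene on the opposite strand in GENCODE M21: Dnmt3a, Setd1a, Kdm3b, Kmt5b and Kdm7a. The antisense gene of Dnmt3a, Dnmt3aos, was at 0.131 CPM and that of Kdm7a, 4930599N23Rik, at 0.407 CPM. Those of Setd1a, Kdm3b and Kmt5b were not analysed here, so their share of the reads is unknown.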

How the data were processed

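The authors deposited normalized CPM for 32494 genes in 12 libraries, and their own test table with log2 fold changes, p-values and false discovery rates. The submitters' processing notes name STAR 2.7.9a, FastQC 0.11.9, SAMtools, Subread and featureCounts. The genome build and annotation of the files are not given in the sources used here. The deposited CPM were whole multiples of 1 step per library (100% of values, within 0.02), so whole reads were recovered. TMM factors were 0.987 to 1.02. Per the labels' protocols, messenger RNA was isolated and NEBNext Ultra II RNA reagents were used.

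CPM are not counts, so the test was limma 3.58.1 (R 4.3.3; lmFit, eBayes with trend) on log2(CPM + 1) over 15359 genes (mean CPM of 1 or more), with Benjamini-Hochberg adjustment over all of them and a threshold of 0.05. Changes are differences of log2(CPM + 1), so those of low genes are understated. Single genes also had a two-sided exact permutation test of 7 against 5 libraries. A level of 3 reads was 0.0436 to 0.178 CPM, for counting error only. GC content and exon length came from GENCODE M21 and covered 94.3% of tested genes and 76 of the 77 chromatin genes. They set the per-kb levels and a spline correction of each library. Promoters came from RefSeq, GRCm38.p6.

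Every gene past the threshold is named. For the up to 10 rises and 10 falls of smallest adjusted p, and for pairs in which a gene passed, values are given. They are given per library for the libraries labelled cKO and as a range for those labelled WT. Genes nearest 1 CPM are given by their means. Other genes were named with their values known. 1 of the 77 tested genes, which did not pass, is counted but not named. The genes, marker lists and partner lists were chosen with earlier results of these data known. Alternatives were quantile normalization, median centring, a pseudocount of 0.1, other filters and eBayes options, arrayWeights, edgeR 4.0.16 quasi-likelihood and DESeq2 1.42.0 on recovered reads, marker scores as covariates, the GC and length correction, and leaving out each library. Thinning of WT 1 and leaving out the 4 libraries lowest in the hypothalamus score were chosen after seeing the data.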

Additional observations from a re-analysis of the deposited data

Results flagged for a closer look

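Of 54 groups of values examined (25 genes and 2 marker scores, each in both groups of mice), 7 held a library far from the others. Chance flags about 1 in 20 such groups, but these share the same 12 libraries and are not independent, so 1 low library can give several, and no excess is read from the 7. In 5 of the 7 it was cKO 13, the lowest of the libraries labelled cKO, and in the other 2 it was WT 5, the lowest of those labelled WT. Among the H3K4 methyltransferases, Setd1a in cKO 13 was at 62.6 CPM while the next lowest library of its group was at 80.4 CPM. Setd1b in cKO 13 was at 28.0 CPM against a next lowest of 45.5 CPM, and Kmt2c at 129 CPM against 147 CPM. Chd5, the neuronal CHD remodeller, was at 332 CPM in cKO 13 against 436 CPM, and Dnmt1, the maintenance DNA methyltransferase, at 76.3 CPM against 88.2 CPM. In WT 5, Kmt2a was at 248 CPM against a next lowest of 287 CPM, and Setd1b at 44.3 CPM against 51.2 CPM. The 25 genes do not cover all 77 tested chromatin genes, so the 7 are no full list of outlying values. Arid1a in cKO 13, at 113 CPM against a next lowest of 154 CPM in its group, is not among them.

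Without cKO 13, the log2 fold change of Setd1a was -0.18 (limma, adjusted p = 0.0541) in place of -0.26, and that of Setd1b -0.13 (limma, adjusted p = 0.0998) in place of -0.27. Chd5 went from -0.01 to 0.08 without it and Dnmt1 from -0.04 to 0.01, neither past the threshold with or without the library. Without cKO 13, Kmt2a went from -0.20 to -0.11 (limma, adjusted p = 0.201). Without WT 5, it was at -0.23 (limma, adjusted p = 0.0560) and Setd1b at -0.31 (limma, adjusted p = 0.0784). cKO 13 also had the lowest level of long relative to short genes. With the GC and length correction, log2 fold changes were -0.23 for Setd1a, -0.15 for Setd1b, -0.14 for Kmt2a and -0.11 for Kmt2c. Those of Chd5 and Dnmt1 were 0.13 and 0.06, and none of these passed. That correction covers GC content and length together, so the part of the tilt alone was not tested.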

How the results depend on the processing

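None of the 14 genes changed sign in the 15 other settings or the 12 fits without 1 library. As reported, 14 genes passed, 3 higher and 11 lower, 6 had ranges apart, and 8 partner genes passed. With all genes above 0 tested, 8 passed, 5 of them lower (4.86% of all genes passed). arrayWeights gave 30 (7 higher, 23 lower; 33.4% of all genes) and 33 partner genes, with a weight of 13.4 for WT 1 and of 0.354 to 2.02 for the others. The thalamus score gave 1 (0 higher, 1 lower) and 3 partner genes, and both scores 6 (1 higher, 5 lower), 5 partner genes and a median log2 fold change of -0.080. edgeR called 15 (3 higher, 12 lower; 14.4% of all genes) and DESeq2 18 (3 higher, 15 lower; 17.9%). Leaving out 1 library gave 6 (without WT 1 or cKO 14) to 14 genes, 2 to 3 higher and 4 to 11 lower, with 8 passing without cKO 13. The fit without WT 11 gave 7 lower, where 5.66% of all genes were lower. Across the fits without 1 library, 6 to 14 genes had ranges apart (14 without WT 5, 10 without cKO 12), and 5 to 10 partner genes passed. The 5 came without cKO 9 or cKO 14, where 9.73% and 9.44% of all genes passed. Without the 4 libraries lowest in the hypothalamus score, the ranges of 25 genes lay apart, as did those of 21.6% of all genes. The causes of these shifts were not tested. Setd1a, Kdm6a, Kdm7a and Kmt5b were lost in 6, 7, 7 and 10 of the 12 fits without 1 library. No paired analysis was possible because the numbers of the mice differ between the groups. With 7 and 5 mice, the smallest exact p is 0.00126, and genes under a mean of 1 CPM entered only the test of all genes above 0.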
